A study of Arabidopsis thaliana with 4 samples.

Results

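WRKY, ERF and NAC proteins are 3 families of plant transcription factors, and the probes for their genes were examined in roots of nai1-1, an Arabidopsis thaliana mutant deficient in ER bodies. A probe was taken when it was assigned to 1 gene whose symbol or RefSeq synonym was WRKY, ERF, DREB, NAC or ANAC with a number. AT1G33760, an AP2/ERF gene, was left out by the same rule. This gave 12 probes for 12 genes, out of 9335 probes with 1 named gene and 22575 probes on the array. WRKY genes made up 10 of the 12, and the ERF/DREB family and the NAC family had 1 member each, DREB2C and NAC014. The RefSeq gene table lists 72 genes under WRKY names, 36 under ERF or DREB names and 100 under NAC names, so most of each family was not analysed here. The families can therefore be set beside each other only as 10 WRKY genes, 1 DREB gene and 1 NAC gene.

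On each of the study's arrays, 4 in number and of Agilent's 2-colour type, root RNA of nai1-1 was hybridised together with that of the wild type, Col-0. Plants of both genotypes were 20 days old, had received no treatment and had grown on shared plates of MS medium with 1% sucrose at 22 °C in continuous light, and RNA of 3 plants was pooled per genotype. The nai1-1 RNA was labelled with Cy3 on arrays 1 and 4 and with Cy5 on arrays 2 and 3. Separate pools of plants for each array are not mentioned in the labels, so the p-values measure the spread between arrays, which may be technical. They also do not give the parental line of nai1-1 or its lesion.

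WRKY proteins bind the W box, a short promoter element, through a domain that carries the WRKY residues and a zinc finger. Many are induced within minutes to hours by microbial patterns, wounding or salicylate, and they are grouped by the number of WRKY domains and the type of zinc finger (groups I, IIa to IIe and III). DREB proteins are a branch of the AP2/ERF family that binds the dehydration-responsive element of drought, cold and heat genes. NAC proteins share an N-terminal DNA-binding domain and act in development, stress responses and senescence, and some are held at membranes until they are released.

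Values are given as the log2 of the ratio nai1-1 over Col-0, so a negative value is a lower transcript level in nai1-1 roots, and a value of -1 is a 2-fold lower level. The sign assumes that the extraction software wrote Cy5 over Cy3, which is its convention and is not stated in the labels, and every sign would turn if it had written Cy3 over Cy5. Means are over 4 arrays with the standard error (SE) of a limma fit on all 22575 probes. A gene is said to have passed when its adjusted p in that fit was under 0.05. The fit has a dye term, so with an array left out its estimate gives both dye orientations equal weight. Such estimates are not plain means of the remaining arrays. Of the genes tied to the mutant, NAI1 had -0.77, -1.21, -0.21 and -0.60 on arrays 1 to 4 and did not pass (limma adjusted p = 0.259). PYK10, the main beta-glucosidase of root ER bodies, fell by 2.01 ± 0.11 (limma adjusted p = 0.032). Where the NAI1 probe lies relative to the lesion is not given, so its value does not check the labels. The files hold ratios without intensities, so marker levels could not be used to check that the tissue was root. Ratios can be given for genes of other cell types, and 5 of 18 photosynthesis genes, listed as markers of shoot tissue, were measured. Their median was -0.10 and their means ran from -0.18 to 0.32, and 0 passed in the limma fit, with 0 at an unadjusted p under 0.05.

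Transcripts of 3 WRKY genes, WRKY53, WRKY22 and WRKY29, were below the Col-0 level on all 4 arrays, by 2.47-fold, 1.64-fold and 1.58-fold in the mean. The other 9 genes had means between -0.17 and 0.25. In the fit on all probes 0 of the 12 genes passed, where 0.496% of all probes did (112 of 22575), and 3 of the 12 were at an unadjusted p under 0.05, where 12.9% of all probes were. That fit includes 143 probes whose deposited ratio is exactly 0 on all 4 arrays and which therefore have no spread. When the 1016 probes with an exact 0 on any array were left out, WRKY53, WRKY22 and WRKY29 passed as lower (3 of 12), where 2.99% of the 21559 probes did. No probe of the 12 genes held an exact 0. When arrays 1 and 2 and arrays 3 and 4 were averaged as 2 replicates, none of the 3 passed, with or without the exact 0 values. Their limma adjusted p lay from 0.0889 to 0.426. Among all probes 0 passed in this way with these values, and 0.561% passed without them. The labels do not pair the arrays. Arrays 1 and 3 and arrays 2 and 4 would also each hold both dye orientations, and that pairing was not tested.

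**Figure D1:**
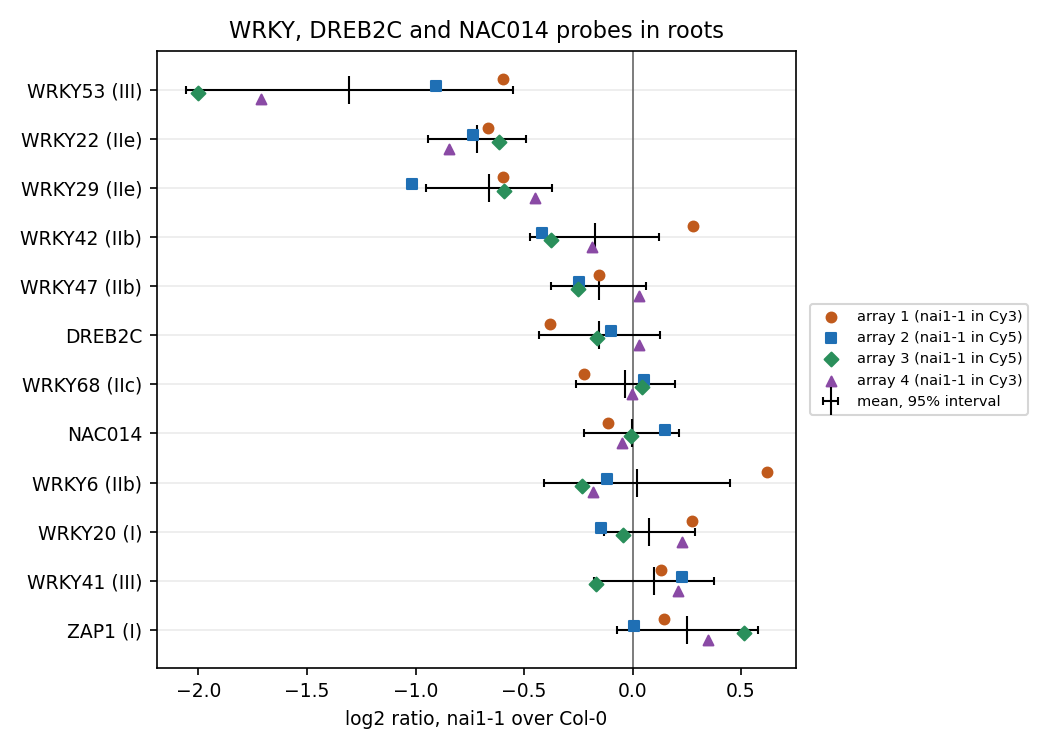
Log2 ratios of nai1-1 over Col-0 (x axis) for the 12 genes, with 1 symbol per array, the mean as a vertical tick and the 95% interval of the limma fit as a bar; Roman numerals give the WRKY group. WRKY53, WRKY22 and WRKY29 lie below 0 on every array, and the other 9 means lie between -0.17 and 0.25.

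WRKY22 and WRKY29 belong to WRKY group IIe and are known as paired outputs of the MAP kinase cascade that follows perception of bacterial flagellin. WRKY22 (AT4G01250) had -0.67, -0.73, -0.61 and -0.85 on arrays 1 to 4. These values lie within 0.23 of each other, and both dye orientations gave the same level. The mean was -0.72 ± 0.08 (SE, n = 4), with a 95% interval from -0.94 to -0.49 (limma adjusted p = 0.0738 on all probes and 0.0172 when exact 0 values were left out). Of the 9335 probes with 1 named gene, 3.04% had a lower mean, and it stood at rank 118 by p.

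WRKY29 (AT4G23550) had -0.59, -1.02, -0.59 and -0.45 on arrays 1 to 4. Array 2 was the lowest, and the other 3 arrays lay close together. The mean was -0.66 ± 0.11 (SE, n = 4), with a 95% interval from -0.95 to -0.37 (limma adjusted p = 0.117 on all probes and 0.0334 without exact 0 values). The ratios of this pair of related genes differed little: WRKY22 minus WRKY29 was -0.05 ± 0.28 (SD, n = 4), above 0 on 1 array and below 0 on 3. An exact two-sided sign-flip test over the 4 arrays gave p = 0.625, and the smallest p that 4 arrays allow is 0.125. Such a test cannot show that the pair changed by the same amount.

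Group III was represented by WRKY53 and WRKY41. WRKY53 (AT4G23810), a regulator of leaf senescence that also acts in defence, had -0.60, -0.91, -2.00 and -1.71 on arrays 1 to 4. All 4 arrays were below 0, but arrays 3 and 4, which have opposite dye orientations, were lower than arrays 1 and 2, which also have opposite orientations. Arrays 1 and 2 averaged -0.75 and arrays 3 and 4 averaged -1.86, and 0.664% of the probes with 1 named gene (62 of 9335) had a larger gap between these pairs of arrays. The overall mean of -1.31 ± 0.28 (SE, n = 4) therefore averages unlike values, and its 95% interval ran from -2.06 to -0.55 (limma adjusted p = 0.18 on all probes and 0.0334 without exact 0 values). The p-value of WRKY53 was larger than those of WRKY22 and WRKY29 although its mean was the furthest from 0, since its arrays differed most: the SD between arrays was 0.66 for WRKY53, 0.10 for WRKY22 and 0.25 for WRKY29.

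WRKY41 (AT4G11070), which is induced by flagellin and acts in defence, had 0.13, 0.23, -0.17 and 0.21 on arrays 1 to 4. It was above 0 on 3 arrays and below 0 on array 3, with a mean of 0.10 ± 0.10 (SE, n = 4; limma adjusted p = 0.722). WRKY53 was below WRKY41 on 4 of 4 arrays, with a difference (WRKY53 minus WRKY41) of -1.40 ± 0.57 (SD, n = 4). The exact two-sided sign-flip p was 0.125, the smallest that 4 arrays allow, and 0.375 after Benjamini-Hochberg adjustment over the 6 pairs of genes that share a WRKY group.

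**Figure D2:**
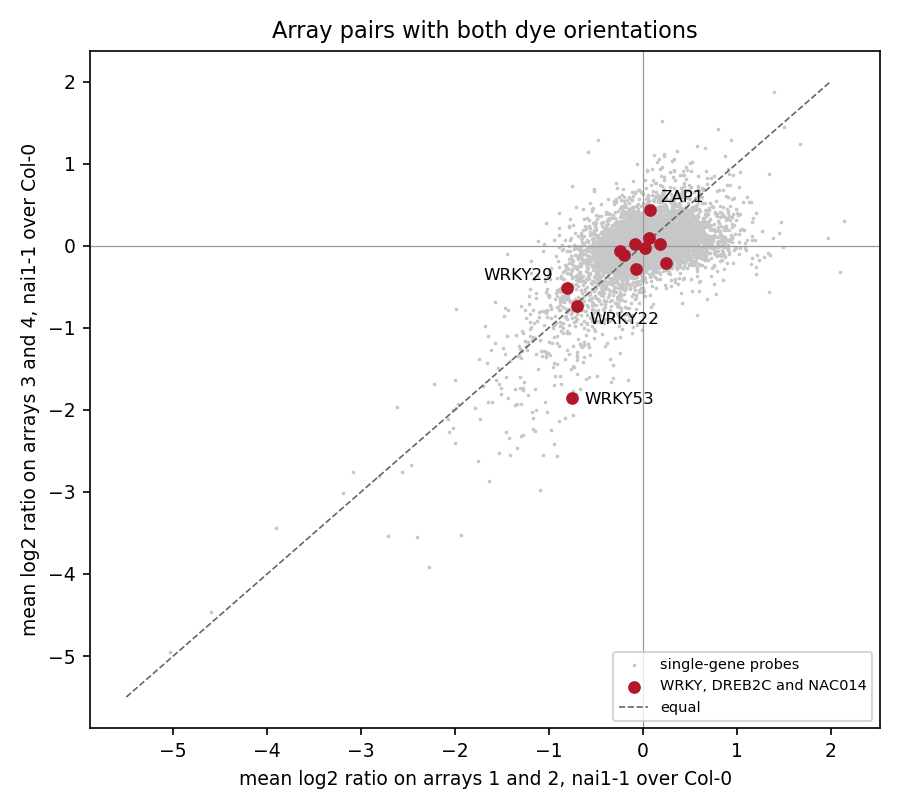
Mean log2 ratio of nai1-1 over Col-0 on arrays 1 and 2 (x axis) and on arrays 3 and 4 (y axis), with 9335 probes with 1 named gene in grey, the 12 genes in red and a dashed line where both pairs are equal. WRKY22 and WRKY29 lie close to the line, and WRKY53 lies below it, at -0.75 and -1.86.

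Group IIb held WRKY6, WRKY42 and WRKY47. WRKY6, which acts in senescence and defence, and WRKY42 are both known as regulators of PHO1, a phosphate exporter gene of roots. PHO1 had no named probe and was not analysed here. WRKY6 (AT1G62300) had 0.62, -0.12, -0.23 and -0.18 on arrays 1 to 4, so that array 1 lay above 0 and apart from the other 3. Its mean was 0.02 ± 0.16 (SE, n = 4; limma adjusted p = 0.974), and the fit's estimate without array 1 was -0.18 (limma adjusted p = 0.90). WRKY42 (AT4G04450) had 0.28, -0.42, -0.38 and -0.19 on arrays 1 to 4, and again array 1 alone was above 0. Its mean was -0.17 ± 0.11 (limma adjusted p = 0.583). When 1 array was left out, the fit's estimate lay between -0.29 (without array 1) and -0.06 (without array 4). WRKY42 was below WRKY6 on 4 of 4 arrays by a small amount, -0.20 ± 0.15 (SD, n = 4; exact sign-flip p = 0.125, adjusted p = 0.375 over the 6 pairs). WRKY47 (AT4G01720) had -0.16, -0.25, -0.25 and 0.03, with a mean of -0.16 ± 0.08 (limma adjusted p = 0.511).

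Group I proteins carry a pair of WRKY domains. ZAP1 (AT2G04880), also called WRKY1, had 0.15, 0.01, 0.51 and 0.35 on arrays 1 to 4. It was the single gene of the 12 above 0 on every array, where 12.9% of the probes with 1 named gene were, and array 2 was close to 0. Its mean was 0.25 ± 0.12 (SE, n = 4), a ratio of 1.19-fold, and did not pass (limma adjusted p = 0.477 on all probes and 0.429 without exact 0 values). Leaving out 1 array moved the fit's estimate between 0.13 (without array 3) and 0.38 (without array 2). WRKY20 (AT4G26640) was at 0.27 and 0.23 on arrays 1 and 4 and at -0.15 and -0.05 on arrays 2 and 3, so its sign followed the dye orientation. Its mean was 0.08 ± 0.08 (limma adjusted p = 0.715). WRKY68 (AT3G62340), of group IIc, had -0.22, 0.05, 0.04 and -0.00, and its mean of -0.03 ± 0.08 did not pass (limma adjusted p = 0.904).

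DREB2C (AT2G40340), a DREB2 gene that is induced by heat, had -0.38, -0.10, -0.16 and 0.03 on arrays 1 to 4. It was below 0 on 3 arrays, with a mean of -0.15 ± 0.10 (SE, n = 4) and a 95% interval from -0.43 to 0.13 (limma adjusted p = 0.608). Without array 1 the fit's estimate for it was -0.05, and without array 4 it was -0.25. NAC014 (AT1G33060), a NAC gene of the membrane-bound type, had -0.11, 0.15, -0.01 and -0.05. It stayed within 0.26 over the arrays, with a mean of -0.00 ± 0.08 and a 95% interval from -0.22 to 0.21 (limma adjusted p = 0.995). With 1 gene each, these values describe DREB2C and NAC014 and not their families.

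By family, the 10 WRKY genes had a median of -0.09, with medians of -0.01, -0.20, -0.24 and -0.09 on arrays 1 to 4. The medians were 0.02 over the probes with 1 named gene and 0.00 over all probes. Within the WRKY family 6 means were below 0 and 4 above. Of its 10 genes, 3 were below 0 on all 4 arrays, where 12.2% of the probes with 1 named gene were. The same 3 were the WRKY genes with a mean more than 1.5-fold below Col-0, as were 4.01% of the probes with 1 named gene. The 95% intervals of the 9 other genes of the 3 families ran from -0.47 at the lowest bound to 0.58 at the highest, and all 9 lay inside a 1.5-fold difference in either direction. These intervals treat the 4 arrays as independent.

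In the order of their means, WRKY53 was lowest, followed by WRKY22 and WRKY29, whose intervals overlap with each other and with that of WRKY53. WRKY42, WRKY47, DREB2C, WRKY68, NAC014, WRKY6, WRKY20, WRKY41 and ZAP1 followed, and each had an interval that included 0 and overlapped with that of the next gene in the order.

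**Figure D3:**
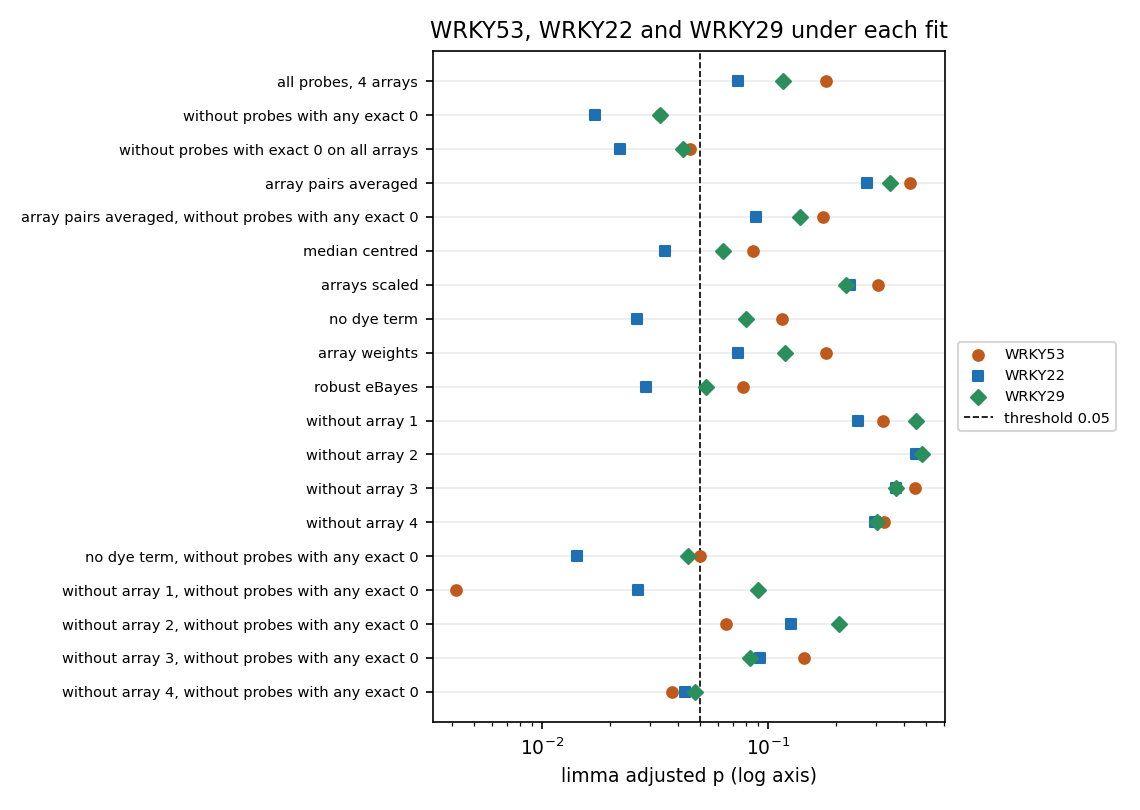
Limma adjusted p (x axis, log scale) of WRKY53, WRKY22 and WRKY29 under the fit on all probes and 4 arrays (top) and 18 other fits, with the threshold of 0.05 as a dashed line. WRKY22 passes in 8 of the 18, WRKY53 in 5 and WRKY29 in 4. None of them passes when an array is left out of the fit on all probes, and neither does any other probe.

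Whether the 3 lower genes passed depended on the exact 0 values and, without these values, on which arrays were used. For WRKY22 it also depended on other settings of the fit. With exact 0 values kept, WRKY22 alone of the 3 passed with median centring, without the dye term or with robust eBayes (limma adjusted p = 0.0349, 0.0262 and 0.0288). In the limma fit on all probes, leaving out any array gave adjusted p-values from 0.251 to 0.481 for these genes. They had not passed there with 4 arrays either. With an array left out, 0 probes of the whole array passed, so that fit cannot show whether a single array carries these genes. Without exact 0 values, none of the 3 passed when array 2 was left out (205 probes passed on the whole array) or when array 3 was left out (222 probes). WRKY53 and WRKY22 passed there without array 1, and all 3 genes passed without array 4. The estimates for the 3 genes stayed below 0 in each of these fits. They lay between -1.58 and -1.03 for WRKY53, -0.76 and -0.67 for WRKY22, and -0.77 and -0.56 for WRKY29.

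Of the 12 genes, 7 lie on chromosome 4, the 3 lower ones among them. No member is next to another in the RefSeq gene table, and WRKY29 and WRKY53 are the closest, with 25 protein-coding genes between them. Ratios of the genes around the 3 lower ones were nearer to 0. Within 10 genes on either side, 10 probes next to WRKY53 had means from -0.13 to 0.35, 6 probes next to WRKY22 from -0.09 to 0.23 and 12 probes next to WRKY29 from -0.35 to 0.33. The lowest of these 28 probes was SGT1A (AT4G23570), a co-chaperone gene of plant immunity next but one to WRKY29, with -0.11, -0.84, -0.18 and -0.28 on arrays 1 to 4 and a mean of -0.35 ± 0.14 (limma adjusted p = 0.414). None of the neighbours was as low as the WRKY gene beside it. WRKY53, WRKY22 and WRKY29 were the lowest of the 12, and 0.9%, 3.04% and 3.36% of the probes with 1 named gene had a lower mean. Few probes at any position are that low, so the comparison cannot show whether a change is local to these genes. Around other members the neighbours reached lower, with means from -1.12 to 0.37 near WRKY68 and from -0.91 to 0.32 near DREB2C.

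**Figure D4:**
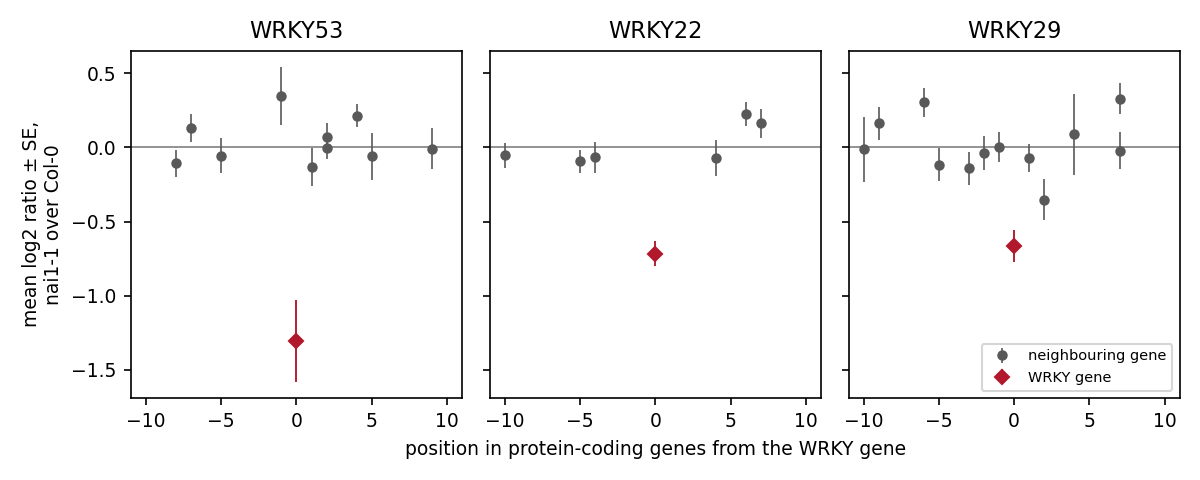
Mean log2 ratio of nai1-1 over Col-0 with its SE (y axis) of genes with a named probe within 10 protein-coding genes of WRKY53, WRKY22 and WRKY29 (x axis, position in genes along chromosome 4), with the WRKY gene as a red diamond. Each WRKY gene lies below all of its measured neighbours, which run from -0.35 to 0.35.

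Genes that act with these families were taken from 5 lists of kinases and WRKY partners, salicylate and defence outputs, ethylene signalling, cold and drought outputs, and secondary wall outputs. No gene of the defence and secondary wall lists had a named probe, and these lists were left out. Of the 19 genes for kinases and WRKY partners 2 were measured, and 0 passed in the limma fit, with 1 (BIK1) at an unadjusted p under 0.05. BIK1 (AT2G39660), a receptor-associated kinase that acts after perception of microbial patterns, had -0.65, -0.51, -0.33 and -0.49 on arrays 1 to 4. It was below 0 on every array, where 12.2% of the probes with 1 named gene were, with a mean of -0.50 ± 0.09 (SE, n = 4). Its limma adjusted p was 0.131 on all probes and 0.063 when exact 0 values were left out. IKU1 (AT2G35230), a VQ protein gene whose product binds a WRKY protein in seeds, had 0.24, -0.56, -0.15 and -0.17 and a mean of -0.16 ± 0.12 (limma adjusted p = 0.646).

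Of the 18 genes for ethylene signalling and outputs 2 were measured, with 0 passing and 0 at an unadjusted p under 0.05 in the limma fit. EIN3 (AT3G20770), the transcription factor that turns on ERF genes in response to ethylene, was at 0.01 ± 0.17 (limma adjusted p = 0.99), and PDF1.2 (AT5G44420), a defensin gene that ERF proteins activate, was at -0.11 ± 0.09 (limma adjusted p = 0.667). Among 15 cold and drought genes, the kind of gene that DREB proteins activate, 5 were measured, with a median of 0.02, 0 passing and 0 at an unadjusted p under 0.05 in the limma fit. COR15A (AT2G42540) had -0.84 and -0.95 on arrays 1 and 2 and 0.32 and 0.11 on arrays 3 and 4. These pairs of arrays had opposite signs, and the mean was -0.34 ± 0.28 (limma adjusted p = 0.661). COR15B was at -0.22 ± 0.14, COR47 at 0.23 ± 0.12 and KIN2 at 0.25 ± 0.12, all 3 late-embryogenesis or cold-regulated genes, and their adjusted p-values in the limma fit lay between 0.479 and 0.589.

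The root hair list, kept as a marker of a root cell type, had 2 of 7 genes measured. EXPA7 (AT1G12560), an expansin of root hairs, had 0.62, 0.37, 0.56 and 0.79 on arrays 1 to 4. It was above 0 on every array, where 12.9% of the probes with 1 named gene were. Its mean was 0.59 ± 0.09, and it passed as higher without exact 0 values, where 0.617% of the probes did (limma adjusted p = 0.0357), but not on all probes (adjusted p = 0.102). Without exact 0 values it no longer passed when any 1 array was left out or when the array pairs were averaged. EXPA18 (AT1G62980) was also above 0 on every array, at 0.38 ± 0.14 (limma adjusted p = 0.394 on all probes). The part of cell composition in the ratios of the WRKY genes was not tested, and in whole roots fewer cells of a type and less RNA per cell cannot be told apart.

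**Figure D5:**
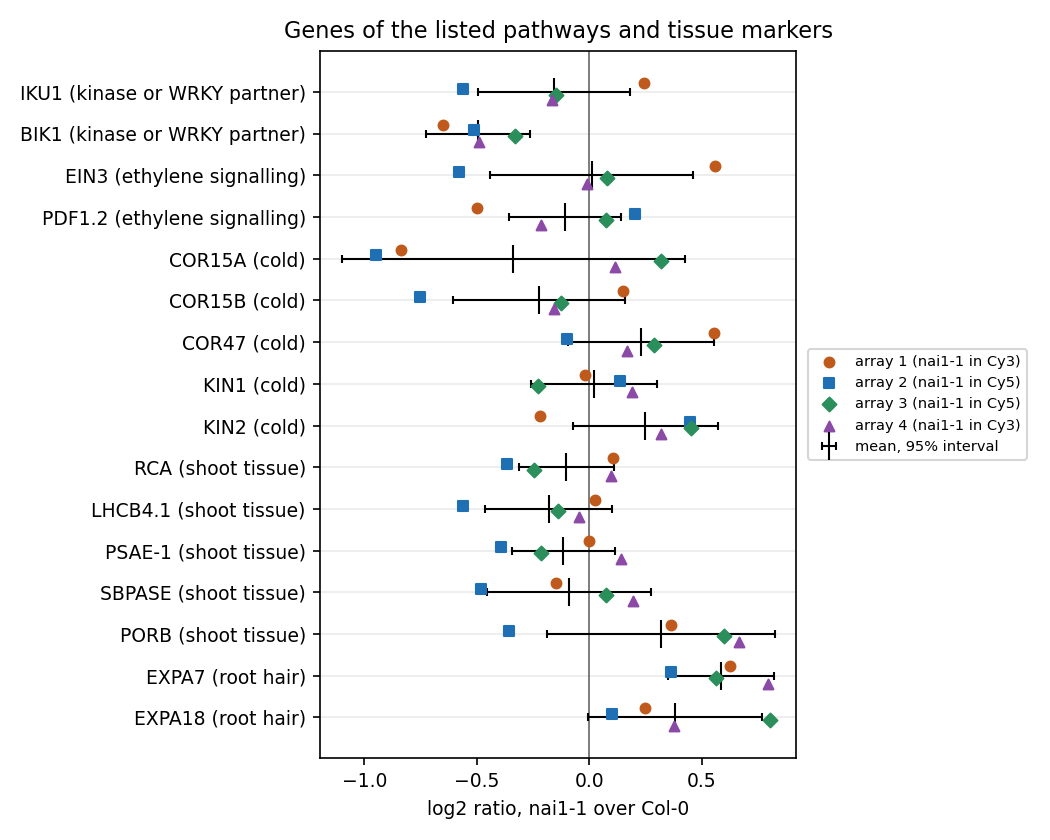
Log2 ratios of nai1-1 over Col-0 (x axis) of the 16 measured genes of the lists, with 1 symbol per array, the mean as a vertical tick and the 95% interval of the limma fit as a bar. BIK1 lies below 0 and EXPA7 and EXPA18 lie above 0 on all 4 arrays, and the others lie on both sides of 0.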

How the data were processed

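Per the submitters' processing notes, the arrays were read with Agilent Feature Extraction 7.1. The deposited values are 1 log10 ratio of the channels per probe and array. Settings for background and dye correction were not given in the sources used here. The reading of the ratio as Cy5 over Cy3 follows the convention of that software, and the labels do not give it. Deposited column medians were 0, 0, -0.00 and 0. Across probes with 1 named gene, arrays of opposite dye orientation correlated between -0.75 and -0.33 and arrays of the same orientation at 0.50 and 0.51. Across all probes r was -0.144 to 0.132 for opposite orientations, with arrays 2 and 4 above 0, and 0.444 and 0.662 for the same orientation. The arrays were therefore taken as not turned before deposition, which rests on the named probes. A dye bias in values already turned could give the same signs of r, so the correlations alone cannot decide this. On the log2 scale and after turning, PYK10 had -2.00, -2.03, -1.68 and -2.32 on arrays 1 to 4. Without turning, its sign would have followed the dye orientation. No pair of arrays was identical. Division by 0.301 gave the log2 scale, on which the values of arrays 1 and 4 were turned in sign. No further normalization was applied. The number of arrays limits the precision. Arrays 1 to 4 were unlike in spread, with scaled median absolute deviations of 0.388, 0.325, 0.218 and 0.185 over all log2 ratios. They held an exact 0 at 835, 647, 220 and 228 probes. Dim, saturated and control spots were not removed, since flags were not analysed here.

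Gene names came from the platform annotation, and Entrez identifiers linked them to current symbols in the RefSeq table for TAIR10.1. Of the probes, 9335 had 1 gene (9317 matched the table), 40 had several and 13200 were not listed and stay unnamed here. Limma 3.58.1 in R 4.3.3 was fitted to all probes with genotype and dye terms, a two-sided test and Benjamini-Hochberg adjustment, and was tested on simulated data. Members, lists and naming rule (WRKY6, WRKY22, WRKY53, the smallest p-values and extremes of each family and subgroup, here all 12 genes, and up to 4 genes a list) were chosen with earlier results of these data known. Neighbouring genes were added later, as were 5 fits that combine leaving out exact 0 values with another change. No member sequence was analysed here.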

Additional observations from a re-analysis of the deposited data

Results flagged for a closer look

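WRKY6 was picked out because 1 array lay apart from the other 3: array 1 gave 0.62, and arrays 2 to 4 gave -0.12, -0.23 and -0.18. It was 1 of 28 genes examined in this way by Dixon's test, of which 12 were the WRKY, DREB and NAC genes, and chance gives about 1 in 20.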

How the results depend on the processing

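The number of the 12 genes that passed was 0 on all probes. It was 3 without probes with any exact 0, 3 without probes with exact 0 on all arrays, and 1 (WRKY22) with median centring, without the dye term or with robust eBayes. Added after seeing the data, it was 3 without both the dye term and exact 0 values, and 2, 0, 0 and 3 without exact 0 values and without array 1, 2, 3 or 4. The probes that passed on the whole array numbered 112, against 778 and 682 without the 2 kinds of exact 0, 436 with centring, 394 without the dye term, 531 with robust eBayes, and 0 with scaled arrays, with array pairs averaged or with any 1 array left out. They numbered 664 without dye term and exact 0 values, and 698, 205, 222 and 939 without exact 0 values and without array 1, 2, 3 or 4. Of the 16 list genes 1 (EXPA7) passed without exact 0 values of either kind, also without the dye term, and 0 on all probes. Without exact 0 values, 0 passed when any 1 array was also left out or array pairs were averaged. The WRKY median stayed within the spread of the arrays. Signs turned for WRKY6 with scaled arrays (-0.06) and, over the fits without 1 array, for WRKY6 (-0.18 to 0.22, and -0.01 without array 2), WRKY68 (-0.09 to 0.02), NAC014 (-0.04 to 0.04, and 0.01 without array 1) and WRKY41 (-0.00 to 0.20), none of which passed. Causes were not tested, except that probes with 0 on all arrays have no spread and enter the spread estimate of every gene. Weighting arrays left the count at 0. No paired analysis was possible because there is 1 group of arrays and no other group shares its replicate numbers. Both genotypes of an array are already paired in its ratio.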
